A study of Danio rerio with 18 samples.

Results

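The genes described here are 5 that mark or serve the epicardium: TBX18, the gene IDs of the paralogs wt1a and wt1b, TCF21 and ALDH1A2. They were taken by symbol, ignoring case, from a count table of zebrafish embryo cells, and the rule found 5 of 28298 gene IDs. TBX18 is ENSDARG00000036930, wt1b is ENSDARG00000007990, TCF21 is ENSDARG00000036869 and ALDH1A2 is ENSDARG00000053493. The annotation gives ENSDARG00000031420 only the unlettered symbol WT1. It stands for wt1a below, since the other wt1 ID is named wt1b, and reads shared by these paralogs may be split between them in either way. All 5 IDs passed the filter on low counts in every test.

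The epicardium is the outer cell layer of the heart. It grows from the proepicardium, a cluster of mesothelial cells beside the inflow of the heart tube, whose cells attach to the heart surface and spread over it. Tbx18 (a T-box protein), Wt1 (a zinc finger protein) and Tcf21 (a basic helix-loop-helix protein) are transcription factors used to mark proepicardial and epicardial cells in zebrafish, and the enzyme Aldh1a2 makes retinoic acid, a signal that the epicardium releases. None of these genes is private to the epicardium: wt1 genes are also expressed in glomerular podocytes, tcf21 in head muscle precursors, tbx18 in fin and somite mesenchyme, and aldh1a2 in somites and pharyngeal mesenchyme.

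RNA came from FACS-sorted embryo cells in 18 libraries. GFP-positive cells (2 libraries per condition) and GFP-negative cells (1 library per condition) were taken from the gata5, tbx5 and hand2 backgrounds at 72 hours post fertilization (hpf) and from wild type at 24, 48 and 72 hpf. gata5, tbx5 and hand2 encode transcription factors of early heart development. Neither the allele carried by a background nor the GFP reporter appears in the labels. Whether replicates 1 and 2 are independent embryo pools is not stated either, so p-values measure only the spread between these libraries, which may be technical.

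Totals ran from 12070094 to 32141901 counts in GFP-positive libraries and from 5705157 to 18863332 in GFP-negative ones. Levels are CPM (counts scaled to a common library size) after scaling by the trimmed mean of M-values (TMM). Among all 21729 tested genes 12.4% were called higher in the GFP-positive fraction and 16.9% lower, by the test described below. Of 16 tested cardiomyocyte markers 15 were higher and 0 lower. Their summed level was 171 to 3756 CPM in GFP-positive libraries and 99.3 to 183 CPM in GFP-negative ones. The lowest value belonged to gata5 replicate 2, whose 171 CPM was near the 166 CPM of the gata5 GFP-negative library, while gata5 replicate 1 held 776 CPM. From 48 hpf on, the GFP-positive libraries held 10940 CPM or more of summed xanthophore markers, and no other library held over 970.2 CPM. HAND2 stood at 2.56 and 0 CPM in hand2 GFP-positive cells, against 47.2 and 45.8 CPM in wild type at 72 hpf. GATA5 was at 17.1 and 14.0 CPM in gata5 cells, against 22.1 and 37.3 CPM in wild type. TBX5, a symbol without a paralog letter, was at 15.5 and 5.18 CPM in tbx5 cells, against 15.4 and 21.7 CPM in wild type. Transcript levels thus leave the gata5 and tbx5 labels unchecked.

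By mean level TBX18, WT1 and TCF21 were highest in GFP-positive wild-type cells at 48 hpf, and ALDH1A2 was lowest there. For TBX18 the wild-type GFP-positive libraries, replicate 1 before replicate 2, held 1.96 and 4.88 CPM at 24 hpf, then 56.0 and 119 CPM at 48 hpf, then 30.2 and 29.2 CPM at 72 hpf. Those of the backgrounds held 4.16 and 4.92 CPM for gata5, 9.43 and 9.94 CPM for tbx5, and 17.02 and 5.49 CPM for hand2. By mean level the order ran from wild type at 48 hpf over wild type at 72 hpf, hand2, tbx5 and gata5 to wild type at 24 hpf. Neighbours in this order did not overlap, except hand2 with tbx5 and gata5 with wild type at 24 hpf. Gaps of this kind are common with 2 libraries per group. Wild type at 48 and 72 hpf did not overlap for 40.7% of all genes, counting both directions. The single GFP-negative libraries of TBX18 spanned 4.36 to 19.8 CPM with a median of 7.02 CPM, the highest of them wild type at 72 hpf.

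WT1 followed the same order of conditions as TBX18. It had no count in either GFP-positive library at 24 hpf, where 3 counts would be 0.218 and 0.157 CPM. The 48 hpf libraries held 27.8 and 49.4 CPM, and those of wild type at 72 hpf 15.01 and 11.5 CPM. The gata5 libraries held 2.90 and 1.13 CPM, the tbx5 ones 7.28 and 8.27 CPM, and the hand2 ones 10.9 and 5.64 CPM. Only hand2 and tbx5, neighbours in the order, overlapped. GFP-negative libraries were close to each other, at 5.07 to 9.24 CPM, and the 24 hpf library among them held 52 WT1 counts (6.68 CPM).

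wt1b, the paralog, was low in all libraries and set its conditions apart less. Wild-type GFP-positive libraries held 0 and 2.99 CPM at 24 hpf, then 6.32 and 10.8 CPM at 48 hpf, then 6.69 and 2.49 CPM at 72 hpf. The gata5 pair held 4.52 and 11.4 CPM, the tbx5 pair 2.46 and 3.83 CPM, the hand2 pair 2.02 and 0.637 CPM. Each condition overlapped with its neighbour in the order of means, in which gata5 came second after wild type at 48 hpf. GFP-negative libraries held 0.385 to 5.38 CPM, the highest of them gata5.

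TCF21 was already present in GFP-positive cells at 24 hpf. That wild-type pair held 22.8 and 8.66 CPM, the 48 hpf pair 19.9 and 38.3 CPM, and the 72 hpf pair 4.51 and 4.11 CPM. The gata5 pair held 1.54 and 6.25 CPM, the tbx5 pair 3.57 and 5.18 CPM, and the hand2 pair 10.2 and 2.65 CPM. Every condition overlapped with its neighbour in the order of means. The libraries at 24 and 48 hpf lay above those of wild type, gata5 and tbx5 at 72 hpf. For 23.7% of all genes wild type at 72 hpf lay below 48 hpf without overlap. GFP-negative libraries were at 1.03 to 6.20 CPM with a median of 1.59 CPM.

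ALDH1A2 ran the other way between stages. Wild-type GFP-positive libraries held 41.7 and 29.0 CPM at 24 hpf, then 15.5 and 19.8 CPM at 48 hpf, then 42.0 and 119 CPM at 72 hpf. The 72 hpf replicates differed 2.82-fold, and replicate 1 was inside the range of the genotypes, with 38.6 and 36.7 CPM for gata5, 44.9 and 41.1 CPM for tbx5, and 48.5 and 34.8 CPM for hand2. GFP-negative libraries held more, 70.1 to 125 CPM with a median of 78.0 CPM.

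**Figure D1:**
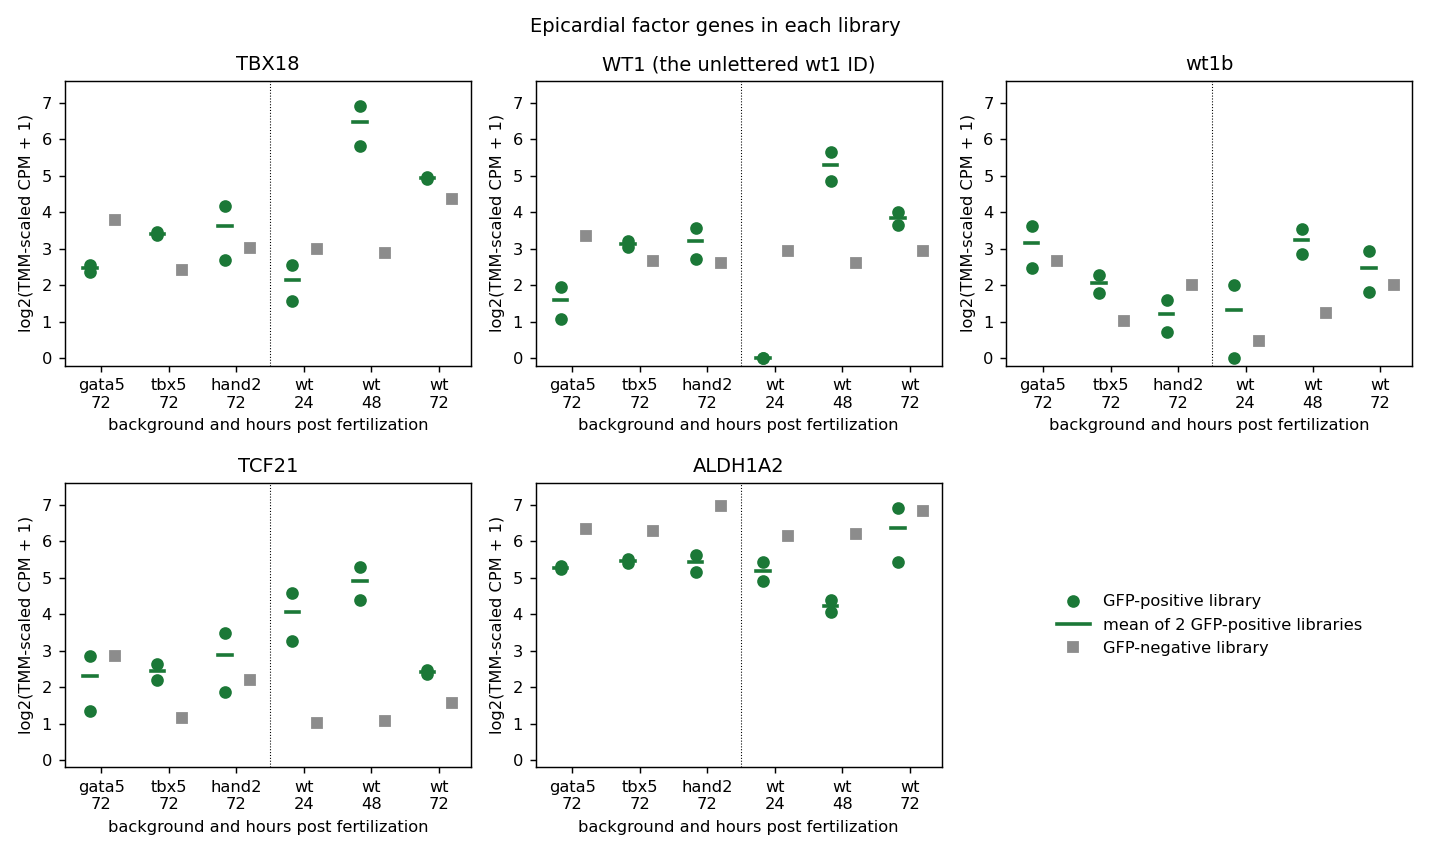
Level of each gene in every library, as log2(TMM-scaled CPM + 1) on the vertical axis, with conditions on the horizontal axis (background and hours post fertilization), green circles for GFP-positive libraries, green bars for the mean of 2 and grey squares for the GFP-negative library. TBX18 and WT1 share their order over the GFP-positive conditions and peak at 48 hpf, where they reached 119 and 49.4 CPM, while ALDH1A2 is lowest there at 15.5 and 19.8 CPM.

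The GFP comparison set the sorted fraction against the remaining embryo cells. Only ALDH1A2 differed across all conditions together: it was lower in GFP-positive cells, with a median of 39.9 CPM over 12 libraries against 78.0 CPM over 6 GFP-negative ones, and the range of 15.5 to 119 CPM overlapped with that of 70.1 to 125 CPM. Its log2 fold change was −1.19 ± 0.22 (SE), with an adjusted p of 0.000699 in edgeR's quasi-likelihood test with Benjamini-Hochberg adjustment. So 1 of 5 genes was called, at an adjusted p under 0.05, where 29.3% of the 21729 tested genes were called in either direction and 16.9% lower. In the wild-type libraries alone the ALDH1A2 change was −1.22, with an adjusted p of 0.128. In bulk RNA, fewer cells of a type and less RNA per cell cannot be told apart.

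The 4 transcription factor IDs did not pass over all conditions. TCF21 was closest, at 1.58 ± 0.69 (adjusted p = 0.0969), followed by wt1b at 0.87 ± 0.86 (adjusted p = 0.488), WT1 at −0.75 ± 1.05 (adjusted p = 0.643) and TBX18 at 0.31 ± 0.52 (adjusted p = 0.703), all from edgeR. DESeq2 and limma did call TCF21, with adjusted p of 0.0251 and 0.0355. So did edgeR without the gata5 background as a whole (2.198, adjusted p = 0.0276) or without gata5 GFP-positive replicate 1 (1.89, adjusted p = 0.0406). The former fit left out the gata5 GFP-negative library, and with it the GFP-positive ones, which then had no partner. The median log2 fold change over the 5 genes was 0.31, and that of all genes was −0.26.

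Within single conditions the factors stood on different sides of the GFP-negative library. At 48 hpf in wild type TBX18 reached 56.0 and 119 CPM in GFP-positive cells, against 6.35 CPM in GFP-negative cells, a ratio of 14.4 by pooled counts (95% counting interval 11.3 to 18.5). TCF21 had a ratio of 27.4 (15.6 to 53.1), its GFP-negative library holding 1.11 CPM. WT1 had 7.74 (5.92 to 10.3), against 5.16 CPM, and wt1b 6.39 (3.81 to 11.6), against 1.38 CPM. All 4 thus had both GFP-positive libraries above the GFP-negative one at 48 hpf, which held for 33% of all genes. ALDH1A2 had both below, at a ratio of 0.247 (0.221 to 0.275), as did 46.5% of genes. Intervals on counts cover counting error only, and each of these ratios rests on 1 GFP-negative library.

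At 24 hpf in wild type only TCF21 had both GFP-positive libraries above, as 26.2% of genes did, at a ratio of 14.2 (7.15 to 33.1). TBX18 (ratio 0.527, interval 0.379 to 0.741), WT1 and ALDH1A2 (0.490) lay below, as did 40.1% of genes. WT1, absent from the GFP-positive libraries, was at least 73.1-fold lower there, taking 3 counts over the group as the floor. The wt1b libraries of 0 and 2.99 CPM lay on either side of the GFP-negative 0.385 CPM. In wild type at 72 hpf the ratios were smaller, 1.498 for TBX18, 1.92 for WT1 and 2.16 for TCF21, with both libraries above for these 3 genes and for 27.2% of all genes. wt1b and ALDH1A2 had a library on each side, and 0 of the 5 genes had both below, as 40.2% of genes did.

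The same ratio was taken in each background. In tbx5 all 4 factor IDs were above the GFP-negative library (34% of genes), by 2.202-fold for TBX18, 1.44-fold for WT1, 2.88-fold for wt1b and 3.45-fold for TCF21. In gata5 TBX18 and WT1 were below it, 2.82-fold (2.12 to 3.76) and 4.47-fold (3.05 to 6.64) lower, as was ALDH1A2 (41.3% of genes lay below). The gata5 GFP-negative library held 12.7 CPM of TBX18 and 9.24 CPM of WT1. In hand2 only WT1 was above with both libraries, the GFP-positive pair holding 10.9 and 5.64 CPM, against 5.07 CPM in the GFP-negative library (41.4% of genes lay above), while wt1b and ALDH1A2 were below (42.9%).

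A test of whether the GFP ratio varied over the 6 conditions called WT1 (adjusted p = 0.0118, edgeR), where 1.84% of 26357 genes were called, but not TBX18 (0.128), TCF21 (0.977), wt1b (adjusted p at 1) or ALDH1A2 (also at 1). This test uses GFP-negative groups of 1 library, which are assumed to vary like the others, and in simulated data most of its calls were false. A fit without a GFP-negative library also leaves out the GFP-positive libraries of its condition, which then have no partner. In edgeR the WT1 call was lost without wild type at 24 hpf as a whole (adjusted p = 0.606) or at 48 hpf as a whole (0.223). It was also lost without GFP-positive replicate 2 at 48 hpf, which left 1 library in that group. TBX18 was called without the hand2 background as a whole (adjusted p = 0.0474, edgeR). It was also called without GFP-positive replicate 2 at 24 hpf, which left 1 library in that group.

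**Figure D2:**
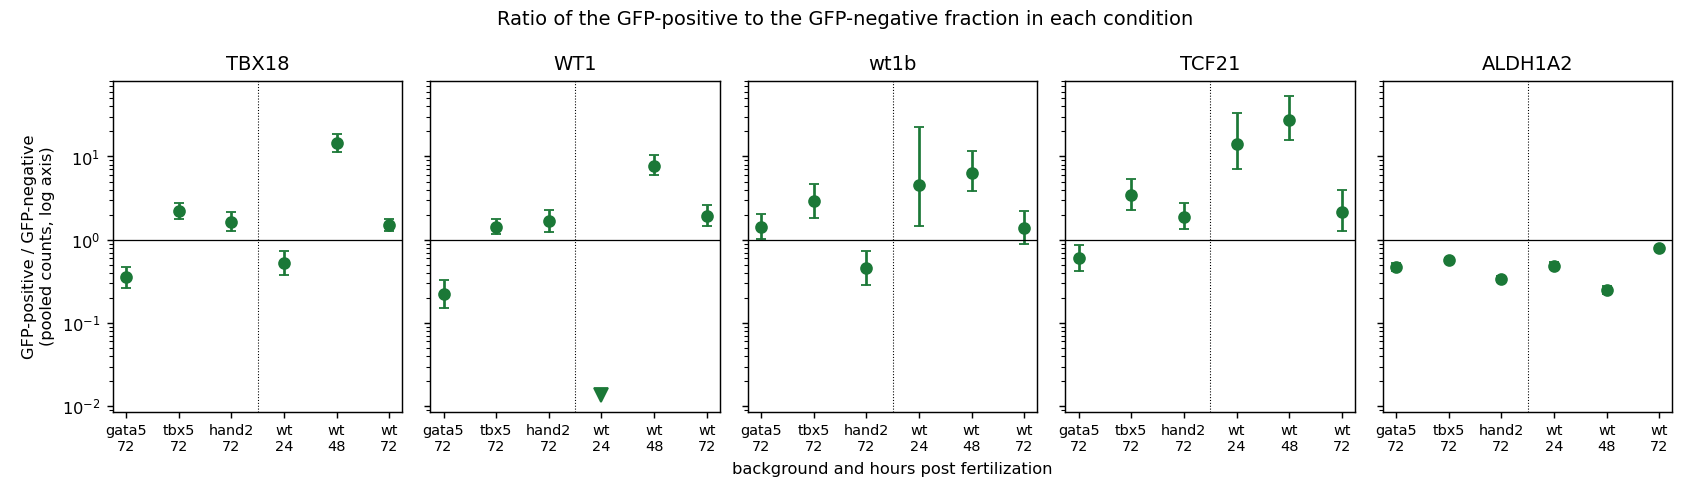
Ratio of the GFP-positive to the GFP-negative level in each condition, from pooled counts on a log axis, with 95% counting intervals as bars; the horizontal line is a ratio of 1 and the triangle for WT1 at 24 hpf is an upper limit, since no GFP-positive count was found. All 4 transcription factor IDs lie above 1 in wild type at 48 hpf, from 6.39 for wt1b to 27.4 for TCF21, while ALDH1A2 lies below 1 in all 6 conditions.

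In wild-type GFP-positive cells the clearest change lay between 24 and 48 hpf. TBX18 rose 25.0-fold by pooled counts (20.8 to 30.3), with 56.0 and 119 CPM at 48 hpf against 1.96 and 4.88 CPM at 24 hpf, and the lowest 48 hpf library was above both 24 hpf libraries. Its log2 fold change was 4.63 ± 0.67 with an adjusted p of 0.000283. WT1 rose too, with 1285 counts over both libraries at 48 hpf against 0 at 24 hpf, at least 437-fold higher (adjusted p = 3.76e-05). These 2 of 5 genes passed edgeR's test, both upwards, where 13.4% of 23767 genes were called and 9.06% were called higher. Both calls held without any of the 4 libraries in turn, with adjusted p up to 0.00410 for TBX18 and up to 0.000335 for WT1.

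The other genes did not pass between 24 and 48 hpf. wt1b had both 48 hpf libraries above both at 24 hpf (2.46 ± 1.69, adjusted p = 0.397), with 284 counts at 48 hpf against 57 at 24 hpf, all 57 of them in replicate 2, and it was called without that library (adjusted p = 0.0344). TCF21, at 19.9 and 38.3 CPM at 48 hpf against 22.8 and 8.66 CPM at 24 hpf, overlapped (0.85 ± 0.86, adjusted p = 0.604). ALDH1A2 was lower without overlap, at 15.5 and 19.8 CPM against 41.7 and 29.0 CPM (−1.04 ± 0.44, adjusted p = 0.158). Libraries did not overlap upwards for 3 of the 5 genes and for 32.7% of all genes, and downwards for 1 of the 5 and for 21.9%, or 54.6% in either direction. The median of the 5 genes was 2.46 and that of all genes was 0.15.

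Markers of several other cells also moved between these stages, and their part in the rise of TBX18 and WT1 was not tested. Of all genes 9.06% were called higher and 4.29% lower over this interval. In GFP-positive wild-type cells the xanthophore list summed to 37832 and 38871 CPM at 48 hpf, against 863 and 749 CPM at 24 hpf, with 12 of 12 genes called higher. Neural markers summed to 299 and 364 CPM, against 42.9 and 29.1 CPM (6 of 12 higher, 0 lower), and retina markers to 118 and 212 CPM, against 10.9 and 4.57 CPM (6 of 14 higher, 0 lower). Both lists stayed below the GFP-negative library at 48 hpf, which held 1565 CPM of neural and 817 CPM of retina markers. For endothelial and endocardial markers the sums were 195 and 157 CPM at 48 hpf, against 3951 and 2677 CPM at 24 hpf (8 of 10 lower). The fibroblast-like list, which shares POSTN, COL1A2 and PDGFRA with the epicardial list, summed to 3719 and 3270 CPM, against 1786 and 1329 CPM (8 of 17 higher, 1 lower, median 1.51). Liver and gut markers summed to 347 and 297 CPM, against 29.8 and 57.8 CPM (4 of 10 higher, 0 lower), and leukocyte markers to 2437 and 2281 CPM, against 998.7 and 1437 CPM (2 of 15 higher, 3 lower). Most of the leukocyte level at 48 hpf was csf1ra, which xanthophores share, at 1743 CPM on average, against 35.2 CPM at 24 hpf. The 3 leukocyte genes called lower were npsn, SPI1 and LCP1.

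Lists for tissues that also express these genes were read in the same way. The glomerulus and pronephros list summed to 785 and 855 CPM at 48 hpf, against 859 and 941 CPM at 24 hpf, with 4 of 24 IDs higher and 2 lower. In that list lhx1a (ENSDARG00000014018) was at least 258-fold and LMX1B (ENSDARG00000068365) at least 122-fold higher, from 759 and 359 counts against none at the earlier stage, and PAX2 (ENSDARG00000028148) rose by 3.30 ± 0.99. SLC20A1 fell (−5.68 ± 0.78). lhx1a, LMX1B and PAX2 are expressed in the nervous system as well as the kidney. Each of the 3 was higher in the GFP-negative library at 48 hpf, at 162.6, 20.8 and 96.9 CPM. Which cells their counts came from was not tested. NPHS1 (nephrin, of the podocyte slit diaphragm), named after its values were seen, was at 1.78 and 7.57 CPM at 48 hpf, against 4.29 and 1.58 CPM at 24 hpf. Somite markers summed to 1669 and 1637 CPM, against 202 and 150 CPM, with 4 of 26 higher and 1 lower; the PAX7 IDs, which xanthophores share, took up most of the 48 hpf sums. The pharyngeal arch and head muscle list stood at 263 and 332 CPM, against 330 and 310 CPM (4 of 22 higher, 1 lower), and pectoral fin mesenchyme at 348 and 327 CPM, against 228 and 190 CPM (2 of 22 higher, 0 lower). Genome-wide, 9.06% of genes were called higher. The 2 called fin genes were msx3 and DLX2, and msx3 averaged 182 CPM at 48 hpf, against 34.4 CPM at 24 hpf. At 48 hpf the fin sums thus rest largely on msx3. Cardiomyocyte markers were at 3756 and 3405 CPM, against 1866 and 1927 CPM, with 0 of 17 called by edgeR.

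From 48 to 72 hpf the transcription factors were lower without passing, and ALDH1A2 was higher. ALDH1A2 stood at 42.0 and 119 CPM at 72 hpf, against 15.5 and 19.8 CPM at 48 hpf, so each 72 hpf library was above both at 48 hpf, as for 17% of genes. Its log2 fold change was 2.21 ± 0.46, with an adjusted p of 0.0485 in edgeR, the 1 call among the 5 genes where 0.488% of genes were called in either direction, 0.261% higher and 0.227% lower. The call did not hold without 72 hpf replicate 2 (1.29, adjusted p = 0.216), without 48 hpf replicate 1 (0.239) or replicate 2 (0.210), or with the wild-type libraries alone (0.278). Without 72 hpf replicate 1 it held (2.78, adjusted p = 0.00133). That replicate pair also differed in several marker sums at 72 hpf. Fibroblast-like markers summed to 3732 CPM in replicate 1 and 7438 CPM in replicate 2, and retina markers to 154 and 252 CPM. Xanthophore markers (19754 and 10940 CPM), leukocyte markers (3487 and 1749 CPM) and cardiomyocyte markers (1428 and 777 CPM) went the other way. The part of these differences in the ALDH1A2 level was not tested.

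TBX18 had 30.2 and 29.2 CPM at 72 hpf against 56.0 and 119 CPM at 48 hpf (−1.54 ± 0.58, adjusted p = 0.319). WT1 was at −1.52 ± 0.72 (adjusted p = 0.443), TCF21 at −2.73 ± 0.91 (adjusted p = 0.251) and wt1b at −0.88 ± 1.61 (adjusted p = 0.914). All of these are edgeR log2 fold changes. The libraries of TBX18, WT1 and TCF21 did not overlap, which held downwards for 23.7% of genes and in either direction for 40.7%, and by pooled counts TCF21 was 7.08-fold lower (6.13 to 8.21), against 3.09-fold for TBX18 and for WT1. Over the 5 genes the median was −1.52, with all genes at 0.

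**Figure D3:**
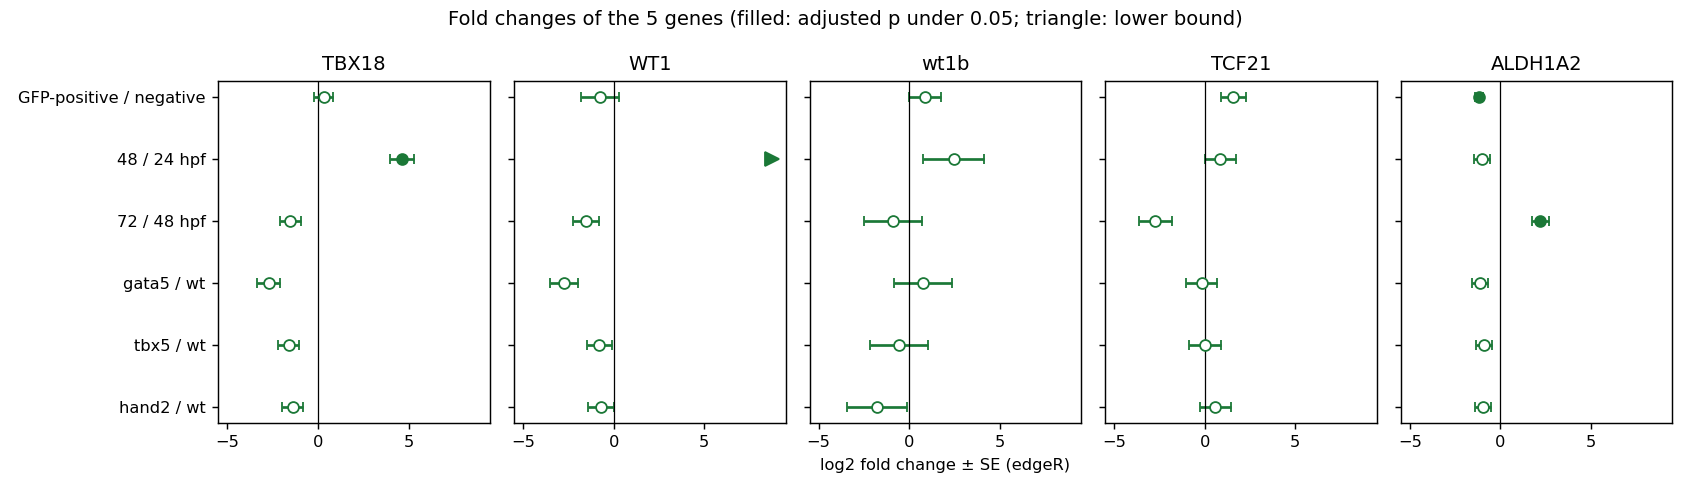
Log2 fold change with its standard error for each gene in the GFP, stage and background comparisons (rows), from edgeR; filled circles passed an adjusted p of 0.05, open ones did not, and the triangle is the lower limit of 437-fold for WT1 at 48 against 24 hpf. TBX18 and WT1 rise at 48 hpf, at 4.63 for TBX18, and both lie at −2.73 in gata5 with open circles.

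In the gata5 background at 72 hpf TBX18 and WT1 were lower than in wild type in GFP-positive cells, though neither passed edgeR's test. TBX18 had 4.16 and 4.92 CPM in gata5 against 30.2 and 29.2 CPM in wild type, 6.56-fold lower by pooled counts (5.32 to 8.16). Its log2 fold change was −2.73 ± 0.62, with an unadjusted p of 0.000557 and an adjusted p of 0.131 in edgeR. WT1 had 2.90 and 1.13 CPM in gata5 against 15.01 and 11.5 CPM in wild type, 6.26-fold lower (4.60 to 8.73), with a log2 fold change of −2.73 ± 0.76 (adjusted p = 0.271). DESeq2 called both, with adjusted p of 0.00432 for TBX18 and 0.0149 for WT1, and edgeR without the filter on low counts called TBX18 (adjusted p = 0.000575). Both alternatives called more genes in this comparison, 856 by DESeq2 against 25 by edgeR with the filter. Without gata5 replicate 2, the library with the low cardiomyocyte sum, the changes were −2.84 (adjusted p = 0.389) and −2.20 (adjusted p = 0.643). Without wild-type replicate 1 edgeR called TBX18 (adjusted p = 0.0433) and ALDH1A2 (−1.70, adjusted p = 0.0331).

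ALDH1A2 was at 38.6 and 36.7 CPM in gata5, against 42.0 and 119 CPM in wild type (−1.11 ± 0.44, adjusted p = 0.446). wt1b, at 4.52 and 11.4 CPM in gata5 against 6.69 and 2.49 CPM in wild type (0.77 ± 1.61, adjusted p = 0.960), and TCF21, at 1.54 and 6.25 CPM against 4.51 and 4.11 CPM (−0.17 ± 0.87, adjusted p at 1), overlapped with wild type. So 0 of 5 genes were called by edgeR in gata5, where 0.105% of genes were (0.0757% higher, 0.0295% lower), and 3 of 5 had an unadjusted p under 0.05, as had 9.64% of genes. TBX18, WT1 and ALDH1A2 did not overlap with wild type, as 14.8% of genes did not in this direction. Cardiomyocyte markers summed to 776 and 171 CPM in gata5, against 1428 and 777 CPM in wild type, with 0 of 17 called, and their part in these differences was not tested.

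In tbx5 and hand2 TBX18 lay between gata5 and wild type at 72 hpf. It was at 9.43 and 9.94 CPM in tbx5, 3.08-fold lower than wild type by pooled counts (−1.62 ± 0.59, adjusted p = 0.488). In hand2 it was at 17.02 and 5.49 CPM, 2.53-fold lower (−1.40 ± 0.58, adjusted p = 0.499). Neither overlapped with the 30.2 and 29.2 CPM of wild type. WT1 was at 7.28 and 8.27 CPM in tbx5 (−0.78 ± 0.71, adjusted p = 0.787) and at 10.9 and 5.64 CPM in hand2 (−0.68 ± 0.71, adjusted p = 0.795), against 15.01 and 11.5 CPM in wild type, also without overlap.

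The remaining genes had small or scattered differences in these 2 backgrounds. TCF21 was at 0.01 ± 0.86 on the log2 scale in tbx5 (adjusted p at 1) and at 0.57 ± 0.86 in hand2 (adjusted p = 0.888), wt1b at −0.55 ± 1.60 (0.993) and −1.78 ± 1.65 (0.752), and ALDH1A2 at −0.91 ± 0.44 (0.606) and −0.95 ± 0.44 (0.543), from edgeR. The sign of TCF21 in tbx5 turned with DESeq2 size factors (−0.04). TBX18 and WT1 did not overlap with wild type in tbx5 (14.3% of genes in this direction, 35.1% in either), and TBX18, WT1 and wt1b did not in hand2 (15.8% in this direction, 43% in either). In each background 0 of 5 genes were called by edgeR, by DESeq2 and by limma, where edgeR called 0.0463% of genes in tbx5 (0.0421% higher, 0.00421% lower) and 0.0505% in hand2 (0.0337% higher, 0.0168% lower). At an unadjusted p under 0.05 edgeR had 1 of 5 genes in tbx5 (8.34% of all) and 2 of 5 in hand2 (9.09% of all). The 3 backgrounds share the wild-type libraries, so their differences are not independent. Hand2 cells held cardiomyocyte markers at 3567 and 1179 CPM and tbx5 cells at 524 and 375 CPM, against 1428 and 777 CPM in wild type.

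Within a library the factors did not keep a fixed ratio. Per TBX18 count wild-type GFP-positive cells had 11.6 and 1.77 TCF21 counts at 24 hpf, then 0.355 and 0.322 at 48 hpf, then 0.149 and 0.141 at 72 hpf, so the stages did not overlap. In the backgrounds at 72 hpf the gata5 pair had ratios of 0.370 and 1.27, the tbx5 pair 0.379 and 0.522, and the hand2 pair 0.598 and 0.482, each library above those of wild type at 72 hpf. WT1 counts per TBX18 count were 0 in both libraries at 24 hpf, beside 27 and 93 TBX18 counts, and lay between 0.229 and 1.03 in the others. The 48 hpf pair had 0.496 and 0.415, the wild-type 72 hpf pair 0.496 and 0.396, the gata5 pair 0.696 and 0.229, the tbx5 pair 0.772 and 0.832, and the hand2 pair 0.640 and 1.03. These ratios are not scaled for transcript length, and only their change between libraries is read. wt1b counts per WT1 count were 1.56 and 10.1 in gata5, against 0.446 and 0.216 in wild type at 72 hpf, the gata5 values resting on 32 and 11 WT1 counts.

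**Figure D4:**
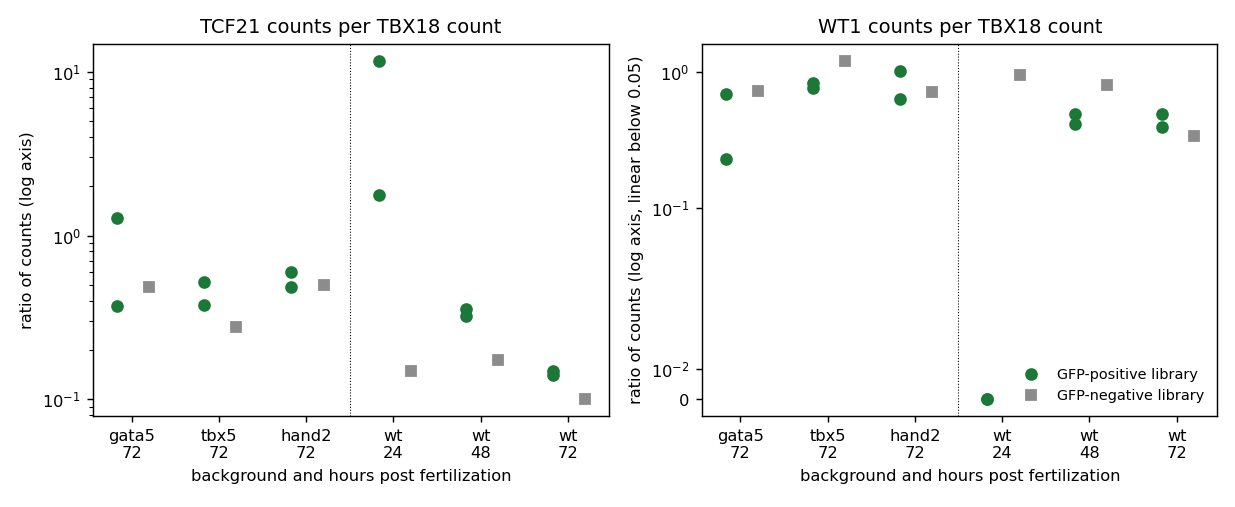
TCF21 counts per TBX18 count (left) and WT1 counts per TBX18 count (right) in every library, on log axes (the right one linear below 0.05), green circles for GFP-positive and grey squares for GFP-negative libraries. The TCF21 ratio is highest at 24 hpf, at 11.6 and 1.77, and lowest at 72 hpf in wild type, at 0.149 and 0.141, among GFP-positive cells.

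Genes with the most similar profile were ranked by Pearson's r of log2(CPM + 1) over the 18 libraries among 16008 named genes. The libraries differ in depth, sort fraction and stage, and all genes share these differences, so r is a description only. WT1 ranked second for TBX18 (r = 0.872, and 0.914 in the 12 GFP-positive libraries), after FZD9, a Frizzled receptor (0.894), and TBX18 ranked second for WT1, after FILIP1 (0.894). NME4 (0.851), pgap6 (0.816) and ecm1b (0.799) came next for TBX18, and the receptor gene cntfr (0.824), the kinase gene fynb (0.822) and EHBP1 (0.796) for WT1. For TCF21 the order was MYRF (0.886), CBFB (0.851), GATA5 (0.827), MMEL1 (0.826) and ID3 (0.815), the last a target of Bmp signalling, and TBX18 stood at 0.466.

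wt1b was most like WDR48 (0.832), TGM2 (ENSDARG00000074094, 0.810), TBC1D20 (0.800), WDR13 (0.794) and a further WDR48 ID (0.793), with TBX18 at 0.583 and WT1 at 0.404. ALDH1A2 was most like MYOC (0.868), ARSJ (0.859), CCDC85A (0.851), SPRY2 (0.847), an inhibitor of receptor tyrosine kinase signalling, and col19a1 (0.847). With the other 4 genes its r was negative, from −0.12 for WT1 to −0.63 for TCF21. In the reference annotation tbx18 and tcf21 lie on the same chromosome with 9 protein-coding genes between them.

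Other genes of the epicardium and of epicardium-derived cells were mostly lower in the GFP-positive fraction. Of 28 tested IDs 1 was higher and 17 were lower in edgeR (median −1.46, all genes −0.26). Among all tested genes 12.4% were called higher and 16.9% lower. ITGA4, the integrin by which epicardial cells attach to the heart surface in mouse, was the one that was higher (2.28 ± 0.30, adjusted p = 3.66e-05), at 188 CPM on average in GFP-positive cells against 33.6 CPM in GFP-negative cells. The called members with the strongest falls were MDK, the growth factor midkine (ENSDARG00000020708, −2.53 ± 0.52), TNC, tenascin C (ENSDARG00000021948, −2.33 ± 0.22), and COL1A2, a collagen chain (−2.27 ± 0.26). Summed over the list, GFP-positive libraries held 1233 to 3294 CPM and GFP-negative libraries 3326 to 6515 CPM. The overlapping fibroblast-like list was lower as well, with 0 of 17 higher and 14 lower (median −1.83) and sums of 1329 to 7438 CPM in GFP-positive libraries, against 4233 to 19987 CPM in GFP-negative ones, and its part in the fall of the epicardial list was not tested.

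Between 24 and 48 hpf 7 of the 28 epicardial IDs rose and 3 fell in wild-type GFP-positive cells (median 0.38, all genes 0.15). Over all genes 9.06% were called higher and 4.29% lower. POSTN (ENSDARG00000043806), periostin, was at least 45.5-fold higher, from 134 counts at 48 hpf and 0 at 24 hpf. CLU, clusterin, was at least 13.3-fold higher, and MDK rose by 4.17 ± 0.96 on the log2 scale. PDGFRB, a receptor of epicardium-derived mural cells, fell by 3.22 with an SE of 0.60, and SEMA3F (ENSDARG00000055373, −1.75 ± 0.49) and a fibronectin ID, FN1 (ENSDARG00000019815, −1.69 ± 0.38), fell too. podxl, podocalyxin of the epicardial and podocyte surface, is named here after its values were seen. It was at 145 and 214 CPM at 48 hpf, against 169 and 177 CPM at 24 hpf (0.01, adjusted p at 1), and was not called. From 48 to 72 hpf POSTN alone was called, higher by 3.46 ± 0.58 (1 of 28), where 0.488% of all genes were called. In each background 0 of 28 were called, with medians of −0.67 in gata5, −0.63 in tbx5 and −0.58 in hand2. Calls were rare there over all genes too, at 0.105% in gata5, 0.0463% in tbx5 and 0.0505% in hand2.

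Genes that specify the proepicardium or signal to the epicardium counted 3 higher and 3 lower of 23 in the GFP comparison (median 0.19). These counts are near the shares of all genes, 12.4% higher and 16.9% lower. ITGA4, tmsb4x, thymosin beta 4 (1.03 ± 0.33), and ID3 (0.89 ± 0.24) were higher. NRG1, neuregulin (−4.13 ± 1.23), FGFR2 (−1.64 ± 0.22) and BMP2 (ENSDARG00000041430, −1.19 ± 0.37) were lower. NRG1 was low in both fractions, averaging 1.27 CPM in GFP-positive and 6.35 CPM in GFP-negative cells. At 48 against 24 hpf 3 of 24 rose, ID2 (1.94 ± 0.36), tmsb4x (1.86 ± 0.44) and ID3 (1.3999 ± 0.37), and 0 fell. The shares of all genes there were 9.06% higher and 4.29% lower. In zebrafish, Bmp4 and Tbx5a are needed to form the proepicardium, and both genes are named here after their values were seen. BMP4 was at 53.2 and 68.0 CPM at 48 hpf, against 144 and 125 CPM at 24 hpf (−1.18 ± 0.42, adjusted p = 0.0805 in edgeR). TBX5, a symbol without a paralog letter, was at 39.7 and 46.5 CPM, against 13.4 and 19.3 CPM (1.36 ± 0.87, adjusted p = 0.366).

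Retinoic acid genes other than ALDH1A2 counted 1 higher and 6 lower of 20 in the GFP comparison (median −0.98). All genes together had 12.4% higher and 16.9% lower. BCO1, which cleaves carotene, was higher (5.20 ± 0.96), at 270 CPM on average in GFP-positive cells against 4.66 CPM in GFP-negative cells; its GFP-positive levels were 338 and 442 CPM at 48 hpf and 8.36 and 4.83 CPM at 24 hpf, and it rose with the xanthophore markers (5.85 ± 0.54). Among those lower were DHRS3, a retinal reductase (ENSDARG00000044982, −1.70 ± 0.52), CYP26B1, which breaks retinoic acid down (−1.66 ± 0.28), and CRABP2, a retinoic acid carrier (ENSDARG00000073978, −1.59 ± 0.21). Of the receptors 0 of 10 were higher and 4 lower (median −0.50), with a pair of RARG IDs at −1.17 ± 0.31 and −0.77 ± 0.21 and rarab at −0.93 ± 0.20.

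Between 24 and 48 hpf 4 of 22 retinoic acid genes rose and 1 fell (median 0.39), where 9.06% of all genes were called higher and 4.29% lower. CYP26C1, a further enzyme of retinoic acid breakdown, fell by 6.67 with an SE of 0.94 on the log2 scale, at 2.202 and 2.43 CPM at 48 hpf against 246 and 218 CPM at 24 hpf. RBP4, the retinol carrier of the blood, was at least 208-fold higher and RBP2 (ENSDARG00000070038) at least 12.6-fold higher at 48 hpf. ALDH1A3, a paralog of ALDH1A2 expressed in the eye and named after its values were seen, was at 2.63 and 1.16 CPM at 48 hpf and had no count at 24 hpf (adjusted p = 0.0525). Among receptors 2 of 10 rose, RXRA (ENSDARG00000035127), at least 32.3-fold, and rxrga (2.05 ± 0.60). Apart from ALDH1A2, which is not in these lists, no retinoic acid gene or receptor was called by edgeR from 48 to 72 hpf or in a background (0 of 22 and 0 of 10 each). Calls were rare there, at 0.488% of all genes from 48 to 72 hpf and at most 0.105% in a background.

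Close relatives of the 5 genes counted 3 higher and 2 lower of 15 in the GFP comparison (median −0.89), where 12.4% of all genes were higher and 16.9% lower. The aldehyde dehydrogenase genes aldh2.2 (3.85 ± 0.70) and ALDH1L1 (3.56 ± 0.34) were higher and ALDH1A2 lower in GFP-positive cells, and egr1, an immediate early gene with Wt1-like zinc fingers, was higher (1.46 ± 0.48). TBX15, the closest T-box relative of TBX18, was lower (−2.30 ± 0.58), at 4.31 CPM on average in GFP-positive cells against 19.9 CPM in GFP-negative cells. TCF24 was lower too (−6.27 ± 1.39), but its levels were near the floor. It averaged 0.128 CPM in GFP-positive cells (44 counts in all) against 1.49 CPM in GFP-negative cells (102 counts), so the size of its change is uncertain. At 48 against 24 hpf TBX15 stood at 7.81 and 2.21 CPM, against 9.09 and 6.46 CPM, and TBX1, a T-box gene of the pharyngeal arches, fell by 2.87 with an SE of 0.59. In that interval aldh2.2 (4.62 ± 0.49) and ALDH1L1 (2.53 ± 0.38) rose and ALDH1L2 fell (−3.00 ± 0.63).

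**Figure D5:**
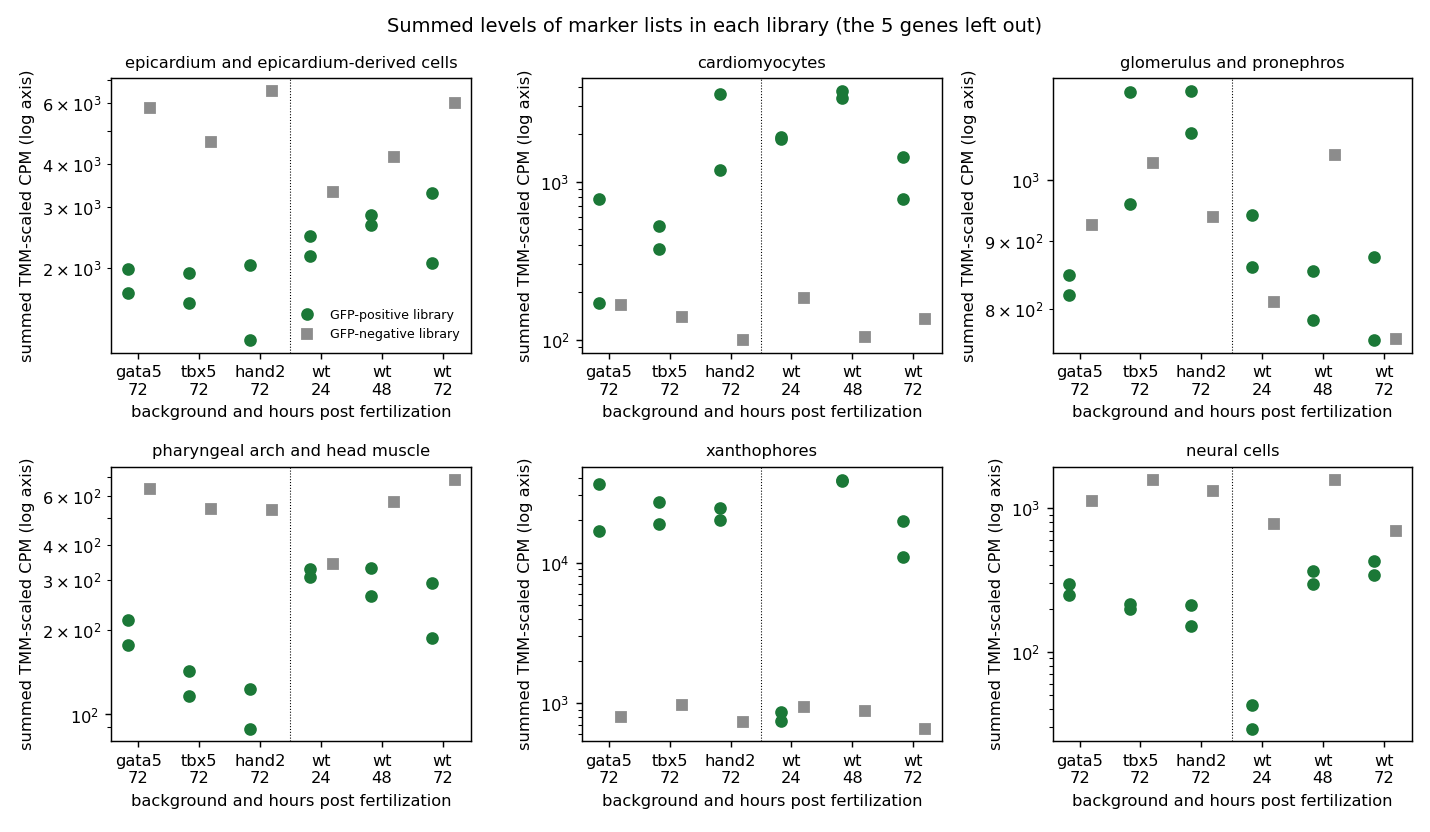
Summed TMM-scaled CPM of 6 marker lists in each library on a log axis, without the 5 genes themselves; green circles are GFP-positive and grey squares GFP-negative libraries, with backgrounds left of wild type. The epicardial list is higher in each GFP-negative library, at 3326 to 6515 CPM, than in the GFP-positive libraries of its condition, and the cardiomyocyte list in gata5 replicate 2 is at 171 CPM, near the GFP-negative 166 CPM.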

How the data were processed

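RNA of FACS-sorted zebrafish cells was sequenced in 18 libraries, prepared with the SMARTer low input kit per the labels. The authors deposited raw counts per gene ID as whole numbers, and log2 values after a regularized-log transformation over the same libraries, which were used in 1 alternative only. The submitters' processing notes list Trimmomatic 0.36, STAR 2.5, SAMtools 1.4, DESeq2 and genome build GRCz10. No source used here gives the counter, the annotation or whether strand was used, so overlapping, antisense and near-identical genes may share reads.

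Counts were tested with edgeR 4.0.16 (R 4.3.3, limma 3.58.1): TMM scaling, the filterByExpr filter (minimum count 10, minimum total 15), robust quasi-likelihood F tests, two-sided, Benjamini-Hochberg adjustment over all genes tested, called under 0.05. The GFP fit held 18 libraries with condition as a term (21729 genes). Stages and backgrounds were compared within the 12 GFP-positive libraries as 6 groups (23767 genes), and the variation of the GFP ratio used all 12 groups (26357 genes). Alternatives were DESeq2 1.42.0, limma on the deposited log2 values, DESeq2 size factors, no filter, a replicate block, subsets of libraries and each library left out. In the GFP test and the test of variation, leaving out a GFP-negative library also left out the GFP-positive libraries of its condition. Those fits thus lack a whole condition.

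Ratios of pooled counts have 95% exact counting intervals, and a fold against 0 counts uses a floor of 3 counts over the group. Replicates differed beyond sampling noise in each group, so each counted as its own sample in the tests; the ratios above sum their counts, and their intervals leave out that spread. The scripts were tested on simulated counts: false calls were few in the GFP test, somewhat above the nominal rate in stage and background tests, and most of the calls in the test of variation. Symbols came from a reference table, which named 24555 of 28298 IDs, and gene order from a RefSeq table of assembly GRCz12tu. The 5 genes and the 17 lists were chosen with earlier results of these data known. Named are the 5 genes, up to 3 called genes per direction and list in the epicardial, proepicardial, retinoic acid and relative lists, and the 5 most similar genes. Not all genes of the other lists that the rule takes are named. Some genes that the rule takes are not reported here.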

Additional observations from a re-analysis of the deposited data

Results flagged for a closer look

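The GFP difference went in opposite directions in different conditions for 3 genes, with every GFP-positive library above the GFP-negative one in some conditions and every one below it in others. Each direction rests on 1 GFP-negative library per condition. In single conditions 26.2% to 41.4% of all genes had both libraries above and 40.1% to 46.5% had both below. The share of all genes with both directions was not counted. For WT1, above in 4 conditions and below in 2, the test of variation gave an adjusted p of 0.0118 in edgeR. Most calls of this test were false in simulated data, and the WT1 call was lost when certain single libraries were left out. For TBX18, above in 3 conditions, below in 2 and mixed in 1, the test gave 0.128. For wt1b, above in 2 conditions, below in 1 and mixed in 3, the adjusted p was 1.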

How the results depend on the processing

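The rises of TBX18 and WT1 at 48 hpf kept their direction and call under all alternatives, with TBX18 at 3.72 to 5.45 on the log2 scale. The direction of ALDH1A2 between GFP fractions held in all of them (−1.26 to −1.01), its call not in wild-type libraries alone.

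Genes called numbered 4928 with DESeq2 at 48 against 24 hpf. At 72 against 48 hpf they were 1181 with DESeq2, 342 with limma, 1022 without a filter and 13 with wild type only. Against wild type, gata5 had 856 (DESeq2), 123 (limma), 514 (no filter) and 6 (72 hpf only), tbx5 had 627, 17, 407 and 4, and hand2 had 672, 59 and 507 with the first 3 of these. The GFP test had 686 in wild type only, and the test of variation 1100 without a filter. Of the 5 genes, the GFP test called 2 with DESeq2, 2 with limma and 0 in wild type only. At 72 against 48 hpf 0 were called with the replicate block and 0 with wild type only. In gata5 2 were called with DESeq2 and 1 without a filter, and in the test of variation 2 without a filter.

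With each library left out in turn, genes called ranged from 4190 to 7269 in the GFP test, 63 to 788 in the test of variation, 1957 to 3089 at 48 against 24 hpf, 55 to 859 at 72 against 48 hpf, 18 to 633 in gata5, 5 to 539 in tbx5 and 14 to 604 in hand2. Of the 5 genes these left-out fits called 1 to 2 in the GFP test, 0 to 2 in the test of variation, 2 to 3 at 48 against 24 hpf, 0 to 1 at 72 against 48 hpf and 0 to 2 in gata5.

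Signs turned only for values that were not called. With each library left out, TBX18 ran in the GFP test from −0.12 (without wild type at 48 hpf as a whole) to 0.78. WT1 ran from −1.51 to 0.40 (without wild type at 24 hpf as a whole). In gata5 TCF21 ran from −1.49 to 0.51 (without gata5 replicate 1) and wt1b from −0.026 (without gata5 replicate 2) to 1.62. In hand2 TCF21 ran from −0.70 (without hand2 replicate 1) to 1.24. In tbx5 TCF21 ran from −0.27 (without tbx5 replicate 2; −0.06 without wild-type replicate 2) to 0.25, ALDH1A2 from −1.48 to 0.016 (without wild-type replicate 2), and wt1b from −1.11 to 0.32 (without wild-type replicate 1). TCF21 in tbx5 was also at −0.042 with DESeq2, −0.042 with its size factors and −0.019 with limma. The cause was not tested.

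Same-numbered replicates did not deviate together (correlations of −0.09 to 0.09 over 15 pairs of groups), so the numbers do not pair samples. With the replicate block ALDH1A2 at 72 against 48 hpf was at 2.19 with an adjusted p of 0.0680, and no other call of the 5 genes changed. Depth limits wt1b most, with 0 to 195 counts per library.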
